A study of Mus musculus with 18 samples.

Results

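The transgelin and calponin genes are a family of 6 paralogs in the mouse, Tagln, Tagln2, Tagln3, Cnn1, Cnn2 and Cnn3, and all 6 were among the 27997 genes of the deposited expression table. Tagln2 was chosen by its level, since it was high in neural stem cells (NSCs) of DNGR-1-traced spinal cord origin and low in hippocampal NSCs, and its 5 paralogs were then taken by name. The NSC difference that picked Tagln2 is therefore given as a description with no test, as is every other Tagln2 difference that uses NSC libraries or sets the traced against the hippocampal line, and so are the differences of the paralogs between the origins in NSCs. The question asked of the other genes was whether any paralog was higher where Tagln2 was low.

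RNA was measured in 18 libraries from 3 adherent lines, each as NSCs and as astrocytes made from them, with 3 replicates in each of the 6 groups. The tdTomato line (genotype DNGR-1 +/- Tom+/-) and the EYFP line (DNGR-1 +/- EYFP+/-) were sorted by their reporter from spinal cord neurospheres, and in both the reporter was switched on by Cre expressed from the DNGR-1 locus. The hippocampal line is labelled DNGR-1+/+ and came from GlastCreHuweflROSALSLEYFP mice, so it also differed from the traced lines in its Cre driver and in a floxed Huwe allele (Huwe1 in the study's methods). NSCs were kept for 4 days with EGF, bFGF and laminin, and astrocytes were made in 6 days with BMP4 at 20 ng/ml. Replicates came from passages 10, 11 and 12 of each line, and nothing says that they came from separate mice, so that p-values measure the spread between passages of a line, and tissue of origin, strain and Cre driver cannot be told apart.

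Transgelins and calponins are small actin-binding proteins that carry a calponin homology domain and short calponin-like repeats. Tagln (SM22 alpha) and Cnn1 are classical markers of contractile smooth muscle, Tagln2 and Cnn2 are the widely expressed members in non-muscle and blood cells, Cnn3 is abundant in brain and other non-muscle tissue, and Tagln3 (NP25) is the neuronal member. They bind and stabilise actin filaments, and calponins can inhibit the ATPase of actin-activated myosin. Several members are targets of serum response factor (SRF), which binds the CArG box and responds to the pool of free actin.

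Expression is given as the deposited log2 values. A log2 value of 3.32, that is a linear value of 10, was the filter for testing a gene (reached in at least 3 of the libraries compared), and sequencing depth cannot be read from such values. The libraries were alike in scale, with linear sums of 21 to 23.2 M, and replicates of a group differed by a median of 0.0746 to 0.126 over the genes tested. All 7 NSC markers and all 8 astrocyte markers were detected, and the summed astrocyte markers lay at log2 values of 15.03 to 15.70 in NSCs and 17.24 to 18.10 in astrocytes. The summed NSC markers lay at 16.63 to 16.77 in NSCs, 16.53 to 16.76 in traced astrocytes and 17.60 to 17.90 in hippocampal astrocytes. Of 8 haematopoietic markers 6 were in the table and 1 (Cd68) passed the filter in any library, while Ptprc, Aif1, Csf1r and Itgam were among those that stayed below it.

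Tagln2 (ENSMUSG00000026547, GRCm38 chr1:172500047-172507380, plus strand) is a protein-coding gene whose product binds and stabilises actin filaments. In tdTomato NSCs its log2 values were 10.26, 10.25 and 10.35, and in EYFP NSCs 9.54, 9.41 and 9.91. In hippocampal NSCs they were 4.08, 3.81 and 3.93. No traced library overlapped a hippocampal library, and the means differed by 6.01 on the log2 scale, by 6.35 for the tdTomato and 5.68 for the EYFP line. The astrocytes kept the order of the lines, with 7.17, 7.0 and 7.18 in the tdTomato line, 6.79, 6.47 and 6.45 in the EYFP line, and 3.88, 3.88 and 4.11 in the hippocampal line. The difference between traced and hippocampal astrocytes was 2.89. From high to low the group means ran 10.29 ± 0.05 (SD, n = 3) in tdTomato NSCs, 9.62 ± 0.26 in EYFP NSCs, 7.12 ± 0.10 in tdTomato astrocytes, 6.57 ± 0.19 in EYFP astrocytes, 3.96 ± 0.13 in hippocampal astrocytes and 3.94 ± 0.14 in hippocampal NSCs. The last 2 groups overlapped, and no other neighbours in this order did. In bulk samples fewer expressing cells and less RNA per cell cannot be told apart, so a low mean does not say whether all cells of the hippocampal line were low.

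**Figure D1:**
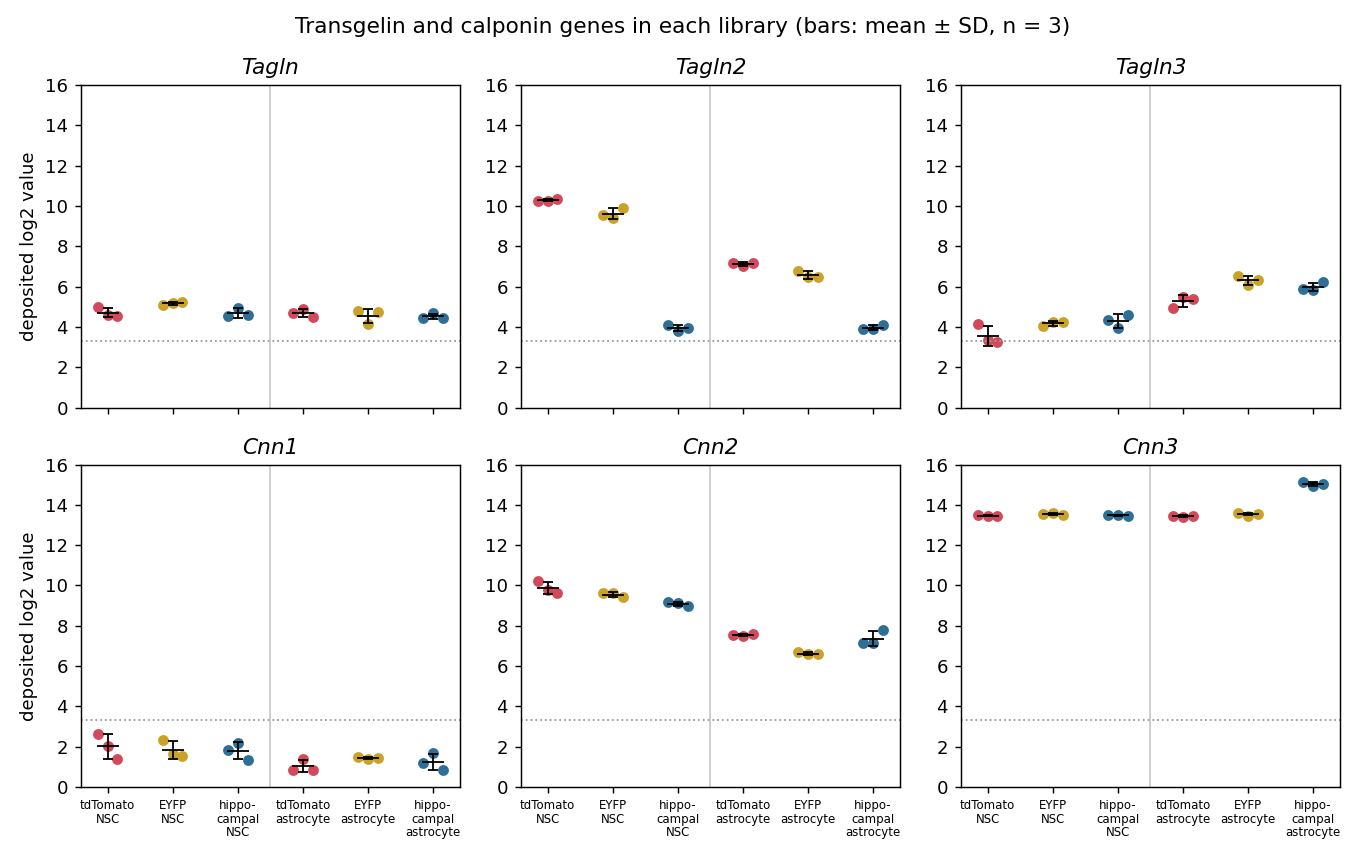
Deposited log2 value (y axis) of each family gene in the 18 libraries, by group (x axis); points are libraries, bars the mean ± SD of 3 replicates, and the dotted line the filter at 3.32. Tagln2 sits between 9.41 and 10.35 in traced NSCs and at 4.11 or below in every hippocampal library, Cnn3 is higher in the hippocampal astrocytes than in the other 5 groups, and Cnn1 is under the filter throughout.

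No paralog was higher in hippocampal than in traced NSCs in every library. Of the 5 paralogs, 4 overlapped between the origins and 1, Cnn2, did not, and Cnn2 was higher in the traced cells, as Tagln2 was. Over all genes tested, the libraries of the 2 origins did not overlap for 25.3% of genes in NSCs, 13.5% with the traced lines higher and 11.8% with the hippocampal line higher. Cnn2 (ENSMUSG00000004665, chr10:79988584-79996062, plus strand), the non-muscle calponin of motile and blood cells, had log2 values of 10.21, 9.80 and 9.62 in tdTomato NSCs, 9.62, 9.61 and 9.41 in EYFP NSCs, and 9.17, 9.12 and 8.96 in hippocampal NSCs. Its means differed by 0.63. Cnn3 (ENSMUSG00000053931, chr3:121426497-121458207, plus strand), the acidic calponin, was nearly flat, at 13.45 to 13.58 in the 6 traced and 13.45 to 13.51 in the 3 hippocampal NSC libraries, a difference of 0.03.

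Tagln3 (ENSMUSG00000022658, chr16:45711230-45724608, minus strand) was low in NSCs of every line. Its log2 values were 4.13, 3.33 and 3.23 in tdTomato NSCs, 4.04, 4.23 and 4.26 in EYFP NSCs, and 4.33, 3.95 and 4.60 in hippocampal NSCs. The hippocampal mean was higher by 0.42, within the range of overlap, and 2 of the tdTomato libraries, at 3.33 and 3.23, lay close to the filter. Tagln (ENSMUSG00000032085, chr9:45929619-45936058, minus strand) was similar at 4.55 to 5.21 in traced and 4.54 to 4.95 in hippocampal NSCs. Cnn1 (ENSMUSG00000001349, chr9:22099216-22109630, plus strand), the smooth muscle calponin, stayed between 1.36 and 2.62 in NSCs and between 0.87 and 1.67 in astrocytes, reached the filter in 0 of 18 libraries and was not tested. Of 8 smooth muscle and pericyte markers 6 passed the filter in some library, and the pericyte markers Pdgfrb and Anpep did not.

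Reads of Tagln cannot be assigned to it with confidence. Of its 75-base transcript stretches, 53.3% also occur in other annotated genes, nearly all in Gm48529, which is annotated on the opposite strand across the same region, and the sources used here do not state whether counting used strand. Gm48529 itself was listed at group means of 5.01 to 6.05. For Cnn3 the share was 16.1%, mostly from Gm42928 on the opposite strand and from pseudogenes, and for Tagln2, Tagln3, Cnn1 and Cnn2 it was 0.

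To set the genes beside each other, the linear values were divided by the exon length of each gene in kb and summed over the family. Since the transform of the deposited values is not named and may shrink differences of low genes, the per-kb levels and shares of low members, and log2 differences against a low group such as that of Tagln2, hold on the deposited scale only. On this scale Cnn3 made up most of the family in every group, from 78.7% ± 0.966 (SD, n = 3) in tdTomato NSCs to 98.8% ± 0.255 in hippocampal astrocytes. Its per-kb level exceeded that of 98.6% of the 15413 genes ranked in tdTomato and in hippocampal NSCs and of 99.6% in hippocampal astrocytes. Tagln2 supplied 12.7% ± 0.721 of the sum in tdTomato NSCs, 8.19% ± 1.57 in EYFP NSCs and 0.184% ± 0.0156 in hippocampal NSCs. Its own per-kb level exceeded that of 87.5%, 79.8% and 14.9% of genes in these 3 groups. Among the family without Cnn3, Tagln2 and Cnn2 together formed nearly all of the level in traced NSCs. In hippocampal NSCs Cnn2 led at 221 per kb, and Tagln2, at 7.39, was below Tagln at 13.1 and Tagln3 at 16.1.

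The summed level of the other 5 genes did not stand higher in the hippocampal NSCs. It was 4137 ± 156 per kb (SD, n = 3) in tdTomato NSCs, 4290 ± 93.7 in EYFP NSCs and 4017 ± 102 in hippocampal NSCs, and the ranges of the tdTomato and the hippocampal libraries overlapped, at 4032 to 4317 against 3909 to 4113. Tagln2 alone stood at 600 ± 22.6, 382 ± 71.4 and 7.39 ± 0.707 per kb. The whole family thus summed to 4738 ± 146, 4672 ± 27.5 and 4024 ± 103, with the 3 hippocampal libraries (3917 to 4121) below the 6 traced ones (4649 to 4907). Without Cnn3 the sums were 1010 ± 77.7, 721 ± 48.4 and 258 ± 15.1.

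**Figure D2:**
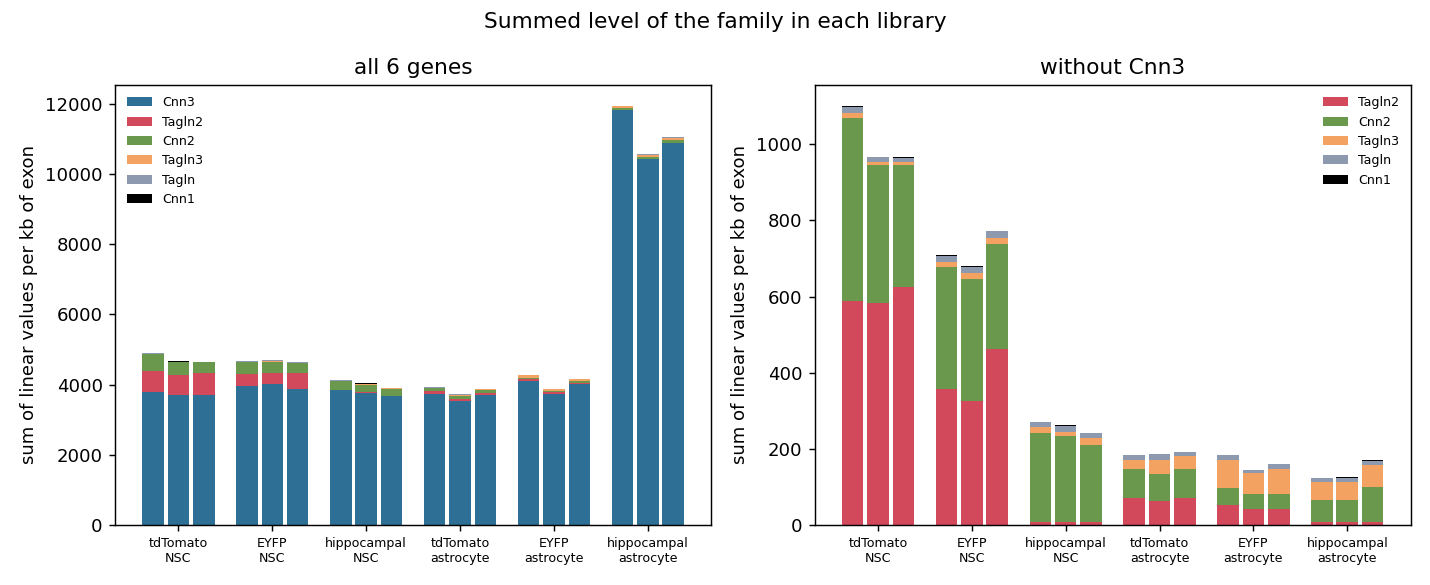
Sum of linear values per kb of exon (y axis, from 0) in each library, stacked by gene, for all 6 genes (left) and without Cnn3 (right), with 3 libraries per group in replicate order. Cnn3 fills most of each left bar and the hippocampal astrocytes reach 10560 to 11930, while on the right the Tagln2 share of traced NSCs has no counterpart in hippocampal NSCs.

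In astrocytes the pattern was another. Cnn3 was higher in hippocampal than in traced astrocytes, and it was the only one of 4 paralogs tested that was called (limma with a mean-variance trend, Benjamini-Hochberg adjusted over all genes; 52% of all genes tested were called, 27.9% with the traced lines lower). Its log2 values were 13.47, 13.39 and 13.46 in tdTomato astrocytes, 13.60, 13.47 and 13.57 in EYFP astrocytes, and 15.13, 14.95 and 15.01 in hippocampal astrocytes. The groups were well apart, and the traced cells were lower by a log2 difference of -1.54 (SE 0.0587, 95% interval -1.67 to -1.41, adjusted p = 2.19e-08). Against the hippocampal astrocytes the tdTomato line alone gave -1.59 and the EYFP line alone -1.49. Of the genes tested, 3.68% were lower in traced astrocytes by at least as much. The overlapping opposite-strand gene Gm42928 was also highest there, with a mean of 7.94 ± 0.18 in hippocampal astrocytes against 5.04 to 5.57 in the other groups, and its part in the Cnn3 value was not tested. Among the 7 NSC markers, Nes (the progenitor filament nestin) stood at a mean of 13.64 in hippocampal astrocytes against 11.09 in tdTomato and 10.86 in EYFP astrocytes, and Vim at 17.42 against 15.97 and 16.02. The part of these markers in the Cnn3 difference was not tested either.

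For the other 3 paralogs the interval of the astrocyte difference included 0. The traced minus hippocampal difference was -0.28 for Cnn2 (95% interval -0.90 to 0.34, adjusted p = 0.434), -0.19 for Tagln3 (-0.89 to 0.52, adjusted p = 0.646) and 0.10 for Tagln (-0.31 to 0.50, adjusted p = 0.683). For Cnn2 and Tagln3 the traced lines did not lie on the same side of the hippocampal line. Cnn2 was 7.56, 7.49 and 7.57 in tdTomato, 6.71, 6.58 and 6.59 in EYFP, and 7.14, 7.15 and 7.79 in hippocampal astrocytes, and the EYFP line alone was lower by a log2 difference of -0.73 (adjusted p = 0.00639). Tagln3 was 4.94, 5.49 and 5.38 in tdTomato, 6.51, 6.06 and 6.34 in EYFP, and 5.87, 5.85 and 6.21 in hippocampal astrocytes, and the tdTomato line alone was lower by a log2 difference of -0.70 (adjusted p = 0.0113). With Cnn3 high, the family sum reached 11190 ± 691 per kb (SD, n = 3) in hippocampal astrocytes, against 3849 ± 106 in tdTomato and 4103 ± 204 in EYFP astrocytes. Without Cnn3 the 3 groups stood at 139 ± 26.1, 188 ± 3.92 and 163 ± 19.7.

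Astrocyte differentiation moved each gene in its own way. Over all lines, astrocytes against NSCs with 9 libraries each, Cnn2 and Tagln fell and Tagln3 and Cnn3 rose, so 4 of 4 paralogs tested were called where 81.9% of all genes tested were called (42.1% higher, 39.8% lower). These means hide differences between the lines. The Tagln call over all lines (a fall of log2 -0.27, adjusted p = 0.0481) was lost in 14 of 26 alternative settings, of which 11 left out 1 of the 18 libraries (adjusted p up to 0.0963).

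Tagln2 was lower in astrocytes than in NSCs of both traced lines, as its library values above show. The log2 difference was -3.17 in the tdTomato line, -3.05 in the EYFP line and 0.02 in the hippocampal line. These values rest on the NSC libraries in which Tagln2 was picked and have no test.

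Cnn2 fell in all 3 lines, by a log2 change of -2.34 (SE 0.130, adjusted p = 2.11e-07) in the tdTomato line, -2.92 (SE 0.0883, adjusted p = 3.29e-09) in the EYFP line and -1.72 (SE 0.160, adjusted p = 4.86e-06) in the hippocampal line. The called share of all genes was 79.3% for the tdTomato line, 74.9% for the EYFP line and 77.3% for the hippocampal one. Every astrocyte library, at 6.58 to 7.79, was below every NSC library, at 8.96 to 10.21. Tagln3 rose in all 3 lines, by 1.71 (SE 0.266, adjusted p = 0.000254), 2.12 (SE 0.165, adjusted p = 1.84e-06) and 1.68 (SE 0.201, adjusted p = 3.18e-05) in the same order of lines. Its NSC libraries reached at most 4.60 and its astrocyte libraries at least 4.94. Over the 18 libraries Tagln3 and Cnn2 were the members with the most opposed profiles (Pearson r = -0.93 over 18 libraries that share the 6 groups), and Tagln2 and Cnn2 had r = 0.53.

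Cnn3 rose with differentiation in the hippocampal line alone. The log2 change was 1.55 (SE 0.0564, adjusted p = 5.74e-09) there, against -0.03 (95% interval -0.12 to 0.07, adjusted p = 0.602) in the tdTomato line and 0.00 (-0.12 to 0.11, adjusted p = 0.937) in the EYFP line. Tagln was called in the EYFP line, where it fell by 0.62 on the log2 scale (adjusted p = 0.0172), and had log2 changes of -0.02 (adjusted p = 0.914) and -0.17 (adjusted p = 0.417) in the tdTomato and hippocampal lines. The EYFP call was lost without a filter (adjusted p = 0.0546 by limma). After quantile normalization Tagln was also called in the hippocampal line, with a log2 change of -0.528 (adjusted p = 0.0232). In the EYFP line the NSC libraries, at 5.11 to 5.21, did not overlap the astrocyte libraries, at 4.13 to 4.77. In the tdTomato line they overlapped, at 4.55 to 4.97 and 4.48 to 4.89.

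**Figure D3:**
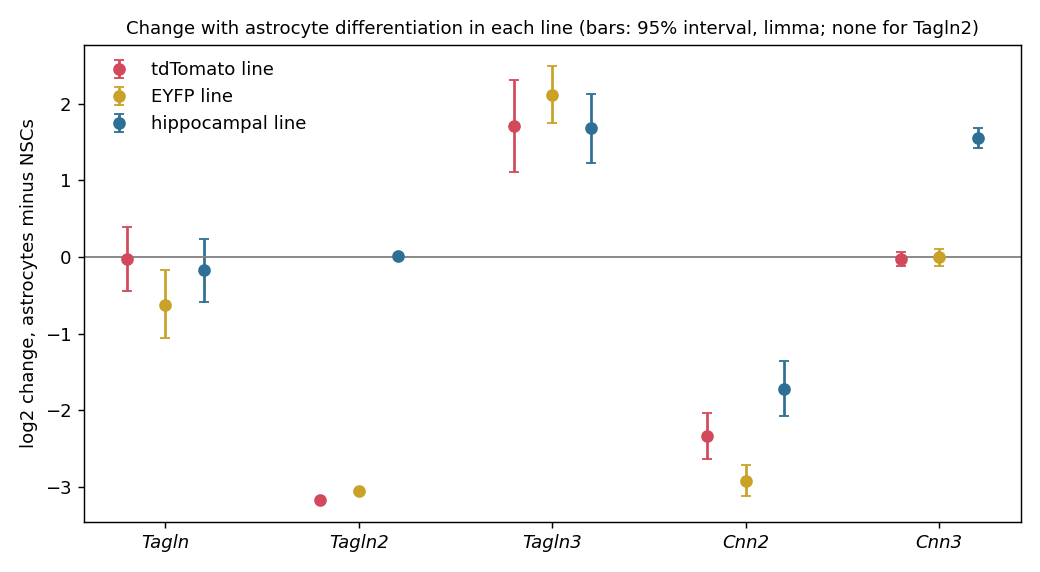
Log2 change from NSCs to astrocytes (y axis) of 5 genes (x axis) in each line; points are differences of means of 3 against 3 libraries and bars the 95% interval from limma, with none for Tagln2, which has no test. Tagln2 is near -3 in both traced lines and at 0.02 in the hippocampal line, Cnn3 is at 1.55 in the hippocampal line and near 0 in the others, and Tagln3 and Cnn2 keep their direction in every line.

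The change with differentiation was then compared between origins, as the change in the traced lines minus that in the hippocampal line. It differed for 2 of the 4 paralogs tested, where 46.2% of all genes tested were called (43.9% of these calls were positive, and 56.2% after centring each library on its median). For Cnn3 the difference was -1.57 (SE 0.0581, 95% interval -1.69 to -1.44, adjusted p = 2.14e-12), and 2.96% of genes differed as far in this direction. For Cnn2 it was -0.91 (SE 0.184, 95% interval -1.29 to -0.52, adjusted p = 0.000601), a steeper fall in the traced lines. This value holds the Cnn2 difference between origins in NSCs (0.63), which has no test, and that in astrocytes (-0.28), which was not called. Intervals for Tagln3 (0.24, -0.36 to 0.83, adjusted p = 0.521) and Tagln (-0.15, -0.63 to 0.33, adjusted p = 0.622) included 0. For Tagln2 the same difference was -3.13, given without a test.

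The 2 traced lines also differed from each other. In NSCs Tagln2 was higher in the tdTomato line by 0.67, given without a test. Of the 4 paralogs tested 0 were called by limma, against 33.2% of all genes, though all 4 had an unadjusted p under 0.05. Their tdTomato minus EYFP differences were -0.45 for Tagln, -0.61 for Tagln3, 0.33 for Cnn2 and -0.08 for Cnn3 (adjusted p = 0.0565, 0.0993, 0.0986 and 0.103). Tagln, Tagln3 and Cnn2 were each called in some alternative settings. The count of all genes called, 4748, ran from 2719 to 5194 leaving out 1 library. In astrocytes 3 of 5 were called, against 11.2% of all genes. Tagln2 was higher in the tdTomato line by 0.55 (SE 0.123, adjusted p = 0.0222) and Cnn2 by 0.91 (SE 0.0911, adjusted p = 0.000408), and Tagln3 was lower there by a log2 difference of -1.03 (SE 0.186, adjusted p = 0.00802). Of the genes tested, 0.869% were lower in tdTomato astrocytes by as much as Tagln3. The Tagln2 call in astrocytes was lost in 5 of 15 alternative settings, and the Tagln3 call without a filter (adjusted p = 0.0558 by limma). The count of all genes called in astrocytes, 1641, was 936 to 1591 leaving out 1 library and 3049 with the replicate block. The change with differentiation was not called different between the traced lines for any of the 4 paralogs tested by limma, where 13.3% of all genes were. Of these, 2 (Cnn2 and Tagln) were under an unadjusted p of 0.05, with differences of 0.59 each and adjusted p = 0.0786 and 0.147.

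Of the 6 expressed genes around Tagln2 that are described, 1 was likewise higher in all traced NSC libraries. Within 250 kb, 21 other genes are annotated, 16 were in the table and 7 passed the filter over the libraries. Igsf9, an immunoglobulin superfamily gene that ends 1.2 kb before Tagln2, overlapped between the origins in NSCs (4.14 to 5.36 in traced, 4.17 to 4.59 in hippocampal libraries). Igsf8, Kcnj9, Kcnj10 and Pigm overlapped as well, with differences of 0.10, 0.08, -0.23 and 0.15. Dusp23, a phosphatase gene 123.4 kb downstream, was higher in traced NSCs by 1.31 with no overlap. In astrocytes, where limma called 52% of all genes tested, the difference was 0.60 for Dusp23 (adjusted p = 0.00099) and 1.12 for Kcnj9 (adjusted p = 0.000597). It was 0.15 for Pigm (adjusted p = 0.0278) and -0.20 for Kcnj10 (adjusted p = 0.0443). Igsf8 and Igsf9 were not called (adjusted p = 0.125 and 0.287).

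**Figure D4:**
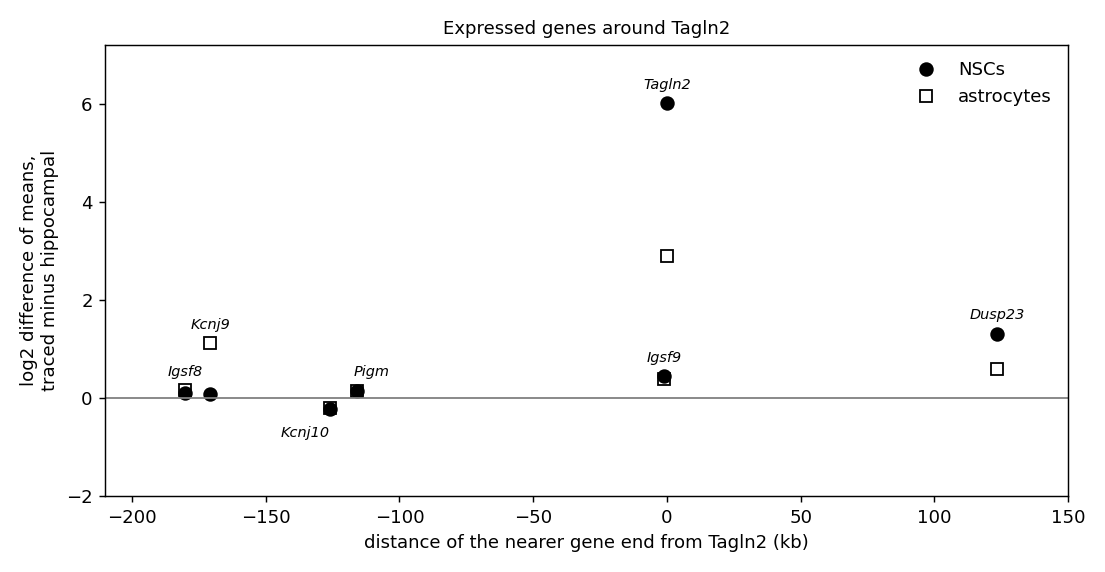
Traced minus hippocampal difference of mean log2 values (y axis) for Tagln2 and 6 other genes within 250 kb that passed the filter, by distance in kb of the nearer gene end from Tagln2 (x axis, negative towards lower coordinates), in NSCs (filled) and astrocytes (open). Tagln2 stands at 6.01 in NSCs and 2.89 in astrocytes, and Igsf9 beside it at 0.44 in NSCs.

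Promoter windows of 300 bases, 250 before to 50 after the RefSeq start (GRCm38.p6), were at hand for 5 of the 6 genes and were searched for 3 short motifs. No window was at hand for Tagln, so its promoter was not searched for any of them. The CArG box bound by SRF (a pair of C, then 6 bases of A or T, then a pair of G, which reads alike on both strands) was found in Cnn2 and in none of the other 4 windows, and in 1.63% of 32851 windows. CATTCC, the core bound by TEAD factors, searched on both strands, was found at 2 places in Tagln2 and in 14.7% of windows. GGCGCC, a GC-rich motif that also reads alike on both strands, was found at 2 places in Tagln2, at 1 in Cnn3 and in 11.9% of windows. A match is a description of the letters, and no binding was measured. The pieces around the Cnn2 CArG box, which starts 56 bases before the start site, and around the nearer Tagln2 CATTCC, which starts 80 bases before it, are shown with these motifs in capitals. Both genes were lower in astrocytes of the traced lines than in NSCs. In the hippocampal line Cnn2 fell too, while Tagln2 changed by 0.02, given without a test. A part of the motifs in these changes was not tested. The 2 pieces lie at chr10:79988464-79988583 and chr1:172500161-172500190, both on the plus strand. The Cnn2 piece ends at the base before the GENCODE gene start, and the Tagln2 piece lies inside an annotated GENCODE exon of the gene.
Cnn2: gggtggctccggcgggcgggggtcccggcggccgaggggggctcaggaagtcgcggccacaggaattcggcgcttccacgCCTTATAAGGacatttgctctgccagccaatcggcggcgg
Tagln2: tccagCATTCCacgcggcggcgcctttaaa

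The genes with which the members act were described from 5 lists by the change with differentiation over all lines, where the median of all genes was 0.02 and 81.9% of all genes were called, 42.1% higher and 39.8% lower. All 4 actin genes tested (6 listed) fell, with a median log2 change of -1.61. The cytoplasmic actins changed least among these, Actg1 by -0.62 (SE 0.0422, adjusted p = 2.22e-10) and Actb by -0.53 (SE 0.0496, adjusted p = 1.92e-08). Of 26 stress fibre and contractile genes tested (28 listed) 9 rose, 12 fell and 5 were not called, with a median of -0.03. Synpo2, an actin-bundling Z-disc protein, rose by 5.23 (SE 0.0984, adjusted p = 3.65e-18), and Smtn, the smooth muscle protein smoothelin, fell by 2.10 on the log2 scale (SE 0.0898, adjusted p = 2.98e-13). Myh11, the smooth muscle myosin heavy chain, rose by 1.47 (adjusted p = 0.000753) with log2 changes of 3.04 and 1.46 in the tdTomato and EYFP lines and -0.10 in the hippocampal line, and Csrp2 fell by 1.59 on the log2 scale (adjusted p = 2.43e-09).

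Of the 16 SRF and YAP regulators and early targets tested (18 listed) 4 rose, 11 fell and 1 was not called, with a median of -0.57. The YAP target Ccn2 fell by 2.99 on the log2 scale (SE 0.318, adjusted p = 9.87e-08) and the SRF target Egr1 by 2.38 (SE 0.220, adjusted p = 1.52e-08), while Wwtr1, which encodes the YAP partner protein TAZ, rose by 0.75 and Tead3 by 0.55 (adjusted p = 8.82e-11 and 4.17e-05). Of 22 actin monomer and filament binding genes tested (25 listed) 10 rose and 10 fell, with a median of 0.05. The filament-severing protein gelsolin, Gsn, rose by 1.45 (adjusted p = 0.000258), with log2 changes of 0.80, 0.37 and 3.16 in the tdTomato, EYFP and hippocampal lines, and the bundling protein Pls3 by 1.02 in the mean (adjusted p = 2.19e-16). Coro1c and the depolymerising factor Cfl1 fell by 1.14 and 0.95 on the log2 scale (adjusted p = 1.44e-13 and 4.38e-12). Of 23 other genes with a calponin homology domain (26 listed) 8 rose, 11 fell and 4 were not called, with a median of -0.09. The microtubule end-binding gene Mapre3 rose by 1.13 and Lrch1 by 0.77 (adjusted p = 5.12e-12 and 1.45e-07), and Iqgap3 and Gas2l3, both known from dividing cells, fell by 5.16 and 3.59 on the log2 scale (adjusted p = 2.14e-18 and 7.5e-16).

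Between traced and hippocampal astrocytes, where Cnn3 was high in the hippocampal line, 14 of 26 stress fibre genes were lower in the traced lines, 4 were higher and 8 were not called, with a median of -0.30 against -0.01 over all genes, of which 52% were called and 27.9% were lower. Of 22 actin binding genes 12 were lower and 1 higher, with a median of -0.27. Of 23 other calponin homology genes 10 were lower and 2 higher, with a median of -0.17, and of 16 SRF and YAP genes 3 were lower and 3 higher. None of 3 actin genes tested was called by limma.

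Finally, the 3 genes with the most similar profile over the 18 libraries were found for each member tested, as a description, since the libraries share groups. For Tagln2 these were AI506816 (Pearson r = 0.989), Tox2 (0.967) and Sart1 (0.962). AI506816, whose group means ran 13.37, 13.08 and 8.33 in tdTomato, EYFP and hippocampal NSCs, showed the same order of lines. For Cnn3 they were Cnmd (0.991), Atp6v0a2 (0.991) and the pseudogene Serpina3e-ps (0.989). Cnmd, the cartilage protein chondromodulin, had a group mean of 8.21 in hippocampal astrocytes and at most 1.52 in any other group, and Atp6v0a2, a subunit of the proton pump of acidic organelles, 14.37 there and at most 12.00 elsewhere. These correlations rest on the 3 hippocampal astrocyte libraries. Cnn2 was most like Cap2 (0.98), Pnmal1 (0.977) and Tnfaip6 (0.975), Tagln3 most like 0610009L18Rik (0.965), Echdc2 (0.962) and Mettl21a (0.961), and Tagln reached 0.832 at most, with Gm10557.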

How the data were processed

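RNA was measured in 18 libraries. Per the study's methods the authors aligned reads with STAR and counted them with RSEM on Ensembl GRCm38, and the submitters' processing notes name Trimmomatic 0.36, RSEM 1.3.0, STAR 2.5.2 and DESeq2 1.18.1. The deposited values are log2 values per gene whose transform is not named, and 29.4% are below 0. Counts, depth and a detection floor were not recovered from them. Their shape is like that of a regularized log, which would shrink differences of low genes, but this was not tested. The study's methods and the labels differ on the library kit and on the read length.

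Values were fitted with limma 3.58.1 (R 4.3.3, trend, Benjamini-Hochberg adjustment over all genes tested, threshold 0.05), without a pseudocount, over genes at a linear value of at least 10 in at least 3 of the libraries compared. Groups came from the sample titles. The scripts were tested on simulated data. Levels per kb used the union of GENCODE exons (GRCm38), and promoter letters are RefSeq's. Members, lists and tests were chosen with earlier results of these data known. Named genes were the members, the largest 2 rises and 2 falls per list among called genes whose mean log2 value over the 9 libraries of the higher fate reached log2(100), genes within 250 kb of Tagln2 and the 3 best-correlated genes per member. AI506816 and Cnmd were singled out after their values were seen. Alternatives changed the pseudocount, filter, scaling, trend, block, samples and lines. Of the 7 genes near Tagln2 that passed the filter, 1 is not reported here.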

Additional observations from a re-analysis of the deposited data

Results flagged for a closer look

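The change from NSCs to astrocytes differed between the traced lines and the hippocampal line for Cnn3 and Cnn2, by the interaction term of the limma fit. The difference was -1.57 on the log2 scale for Cnn3, which rose in the hippocampal line and had changes of -0.03 and 0.00 in the traced lines. It was -0.91 for Cnn2, which fell in all 3 lines and was higher in traced than in hippocampal NSCs by 0.63, given without a test.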

How the results depend on the processing

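For the members 37 tested results were recomputed under 693 alternatives in all, of which 647 kept the direction and the side of the threshold, 21 lost the call, 12 gained one, and 13 turned the direction of a difference that was not called in either. After median centring the change with differentiation was 0.059 for Tagln and 0.057 for Cnn3 in the tdTomato line, 0.053 for Cnn3 in the EYFP line, and 0.008 for Cnn3 between the traced lines. Between traced and hippocampal astrocytes Cnn2 gave 0.180 with the tdTomato line alone and Tagln3 gave 0.326 with the EYFP line alone. Leaving out 1 library, values ran from -0.122 to 0.106 for Tagln in the tdTomato line, -0.032 to 0.034 for Cnn3 in the EYFP line, -0.059 to 0.260 for Tagln between traced astrocytes, and -0.059 to 0.007 for the Cnn3 change between traced lines. The Tagln fall over all lines was lost in 14 of 26 alternatives (adjusted p up to 0.103), 11 of which left out 1 library, and among them the replicate block (0.0623). Without a filter, adjusted p became 0.0546 for Tagln in the EYFP line, and 0.0757 for Tagln2 and 0.0558 for Tagln3 between traced astrocytes. The Tagln2 call there was also lost without tdTomato replicate 1 or 3 or EYFP replicate 2 or 3 (adjusted p up to 0.0837). Between traced NSCs, calls were gained for Tagln with a pseudocount of 10 (0.049), quantile normalization (0.0465) and no trend (0.0385), without tdTomato replicate 1 for Tagln (0.0226) and Tagln3 (0.0135), without tdTomato replicate 3 for Cnn2 (0.0412), and with the block for Cnn2 (0.0169). Between libraries of the same replicate number, deviations from the group mean were correlated within a fate by 0.012 to 0.313, with a mean of 0.106. Of these 18 pairs 9 were at 0.1 or less. The mean was -0.024 within a line and 0.004 for pairs sharing neither line nor fate. Whether libraries of a replicate number shared a batch or passage was not tested, and the main fits have no term for it. The block changed no other call of a member. Cnn2's change differed between the traced lines without tdTomato NSC replicate 1 (adjusted p = 0.0167) or hippocampal astrocyte replicate 3 (0.0219), and Tagln was called in the hippocampal line after quantile normalization (0.0232). Median centring moved the share of calls that were higher from 54.6% to 44.6% between traced and hippocampal NSCs, and from 43.9% to 56.2% for the change with fate between origins. Cnn1 had no test, and low members drop out at a filter of 100. The cause of these moves was not tested.

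Genes called numbered 2822 between traced and hippocampal NSCs, 5207 from 3 line means, 6076 for the tdTomato line alone and 1657 to 2886 leaving out 1 library. They numbered 4748 between traced NSCs, 2970 with no filter and 2719 to 5194 leaving out 1 library. Between traced astrocytes there were 1641, 975 with no filter, 3049 with the replicate block and 936 to 1591 leaving out 1 library. For the change with fate between traced lines there were 2060, and 1317 to 2493 leaving out 1 library.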
